A study of Mus musculus with 36 samples.

Results

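The miR-200 family was followed through small RNA libraries of the mouse prostate. Its 5 mature members on the 3p arm, miR-200b-3p, miR-200a-3p, miR-429-3p, miR-200c-3p and miR-141-3p, were taken by name (with the prefix mmu- for mouse) from the deposited miRNA tables, which list 1963 mature miRNAs, of which 389 had no read in any library. All 5 were read in each of the 36 libraries. The tissue was the ventral and lateral lobes of male mice, which were age-matched littermates on a strain given as C56NL/6N. There were 12 groups of 3 libraries, made of 3 Elac2 lines, with or without the TRAMP transgene, at 10 and at 30 weeks of age. ELAC2 is the RNase Z enzyme that cuts the 3′ trailer from transfer RNA precursors. WT mice carried intact Elac2. KO mice lost Elac2 in the prostate, where the probasin (Pb) promoter drove Cre recombinase. A537T mice were homozygous for that amino acid change of Elac2 in every tissue. TRAMP mice carried one copy of a transgene in which the probasin promoter drives the SV40 T antigens in prostate epithelium, a model in which tumours develop with age. KO and A537T mice of one age and background were compared with the same 3 control libraries, so those comparisons share controls. The libraries of a group were biological replicates from different mice, per the study's methods.

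The miR-200 family is a textbook mark of epithelial cells. Its members repress Zeb1 and Zeb2, the transcription factors that shut off E-cadherin, and Zeb1 and Zeb2 repress the miR-200 genes in return, so that the family is abundant in epithelium and scarce in mesenchymal cells such as fibroblasts and muscle. A miRNA finds its targets mainly through the seed, bases 2 to 8 from its 5′ end. The family holds 2 seeds that differ at a single base, and so 2 overlapping sets of targets.

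The mature sequences, from RefSeq with the GRCm38.p6 assembly, are shown because the seed divides the members into 2 target groups and the results compare their shares. The seed is in capitals. The first 3 carry one seed and the last 2 the other.
miR-200b-3p: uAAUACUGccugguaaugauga
miR-200c-3p: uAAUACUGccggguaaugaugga
miR-429-3p: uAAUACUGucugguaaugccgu
miR-200a-3p: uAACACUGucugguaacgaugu
miR-141-3p: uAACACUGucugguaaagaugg

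With positions counted from 1 at the 5′ end, miR-200b-3p and miR-200a-3p differed by U4C in the seed and by C9U, U17C and A22U outside it. Some pairs of one seed were closer. Over 22 bases, miR-200c-3p differed from miR-200b-3p by U11G and A22G, and miR-141-3p differed from miR-200a-3p by C17A and U22G. This did not hold for miR-429-3p, which differed from its seed mates miR-200b-3p at 4 and miR-200c-3p at 5 positions. The authors' quantification weighted reads that fit several miRNAs, and how reads of such close relatives were divided was not tested.

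The 5 genes lie in 2 clusters, each of which mixes the seeds. On GRCm38, Mir429 (chr4:156053905-156053987), Mir200a (chr4:156054896-156054985) and Mir200b (chr4:156055681-156055750) span 1846 bases of the minus strand, within introns of Ttll10 in the GENCODE vM21 annotation. Mir429 also lies in an exon, and the other two in introns, of the noncoding gene Gm13648. Mir141 (chr6:124717914-124717985) and Mir200c (chr6:124718322-124718390) span 477 bases of the minus strand between Phb2 and Ptpn6. Both lie in an intron of the noncoding antisense gene Gm15884, and Mir141 also overlaps an exon of the annotated gene Gm29008. The hairpins of miR-200a and miR-200b are shown because both of their arms were measured and their 5p arms enter a comparison. The mature arms are in capitals, the 5p arm first.
Mir200a: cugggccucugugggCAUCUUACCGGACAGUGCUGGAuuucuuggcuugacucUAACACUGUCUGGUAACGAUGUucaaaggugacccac
Mir200b: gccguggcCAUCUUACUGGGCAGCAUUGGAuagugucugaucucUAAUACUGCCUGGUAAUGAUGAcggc

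Values are given as CPM, the reads of a miRNA in a library scaled to 1000000 reads of all listed miRNAs in that library. Library 35, of the A537T group at 10 weeks, held 655455 reads and the others 4544257 to 21870210. The prostate epithelial miRNAs of a list of 7 were present throughout and summed to 0.897% to 2.96% of reads. Some libraries also held much RNA of other tissue. In the 10-week groups that lacked TRAMP, the 8 miRNAs of a skeletal muscle list took up to 30.7% of reads in WT libraries. They took up to 13.7% in A537T and up to 6.51% in KO libraries of those groups. In the TRAMP libraries of that age they took 0.218% to 3.09%. At 30 weeks the list took 0.356% to 0.821% without TRAMP and 0.187% to 0.937% with it. A list of 9 stromal and smooth muscle miRNAs ranged from 6.49% to 40.7%. TRAMP libraries were numbered 1 to 18 and the others 19 to 36. Within each set, the ages and the Elac2 lines also had runs of numbers of their own. Any handling that followed this numbering cannot be told apart from TRAMP, age or line. In bulk tissue, fewer cells of a type and less RNA per cell cannot be told apart either.

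The members ranged from 8th to 70th in abundance among the miRNAs of the gland. By mean CPM over the 36 libraries, mmu-miR-200b-3p ranked 8th with 27908 CPM, mmu-miR-200a-3p ranked 11th with 22465 CPM and mmu-miR-200c-3p ranked 14th with 13859.7 CPM. The chromosome 4 member mmu-miR-429-3p ranked 37th with 3053 CPM. The partner of miR-200c on chromosome 6, mmu-miR-141-3p, ranked 70th with 788 CPM. Each member varied about 3-fold to 4-fold across libraries. The level of miR-200b-3p ran from 14902 CPM in library 36 to 47433 CPM in library 19, and miR-141-3p ran from 321 CPM in library 36 to 1211 CPM in library 13. Library 36 was an A537T library of 10 weeks, and also held the lowest miR-200a-3p.

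Together the 5 members made up 3.49% to 9.60% of all miRNA reads. In library 35, the shallowest, the share was 5.43% with a 95% Wilson interval of 5.37% to 5.48%, which covers counting error only, so depth did not limit these values. The 3 lowest group means (n = 3, ± SD) were those of the 10-week groups without TRAMP: 4.78% ± 0.23 in KO, 5.05% ± 1.41 in A537T and 5.16% ± 1.25 in WT. The 2 highest were 8.42% ± 1.05 in WT at 30 weeks and 8.44% ± 0.59 in WT-TRAMP at 10 weeks. The other 7 means lay between 6.74% and 7.71%. Groups next to each other in this order overlapped in 11 of 11 cases, and in 10 of 11 the gap between means was smaller than the larger of their SDs. At 10 weeks, 8 of the 9 TRAMP libraries had a larger family share than every library without TRAMP. At 30 weeks the ranges of 5.69% to 8.98% with TRAMP and 5.31% to 9.60% without overlapped. All of these are shares of all miRNA reads. Skeletal muscle miRNAs took up to 30.7% of those reads in the 10-week libraries without TRAMP, and the shares above were not corrected for them.

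**Figure D1:**
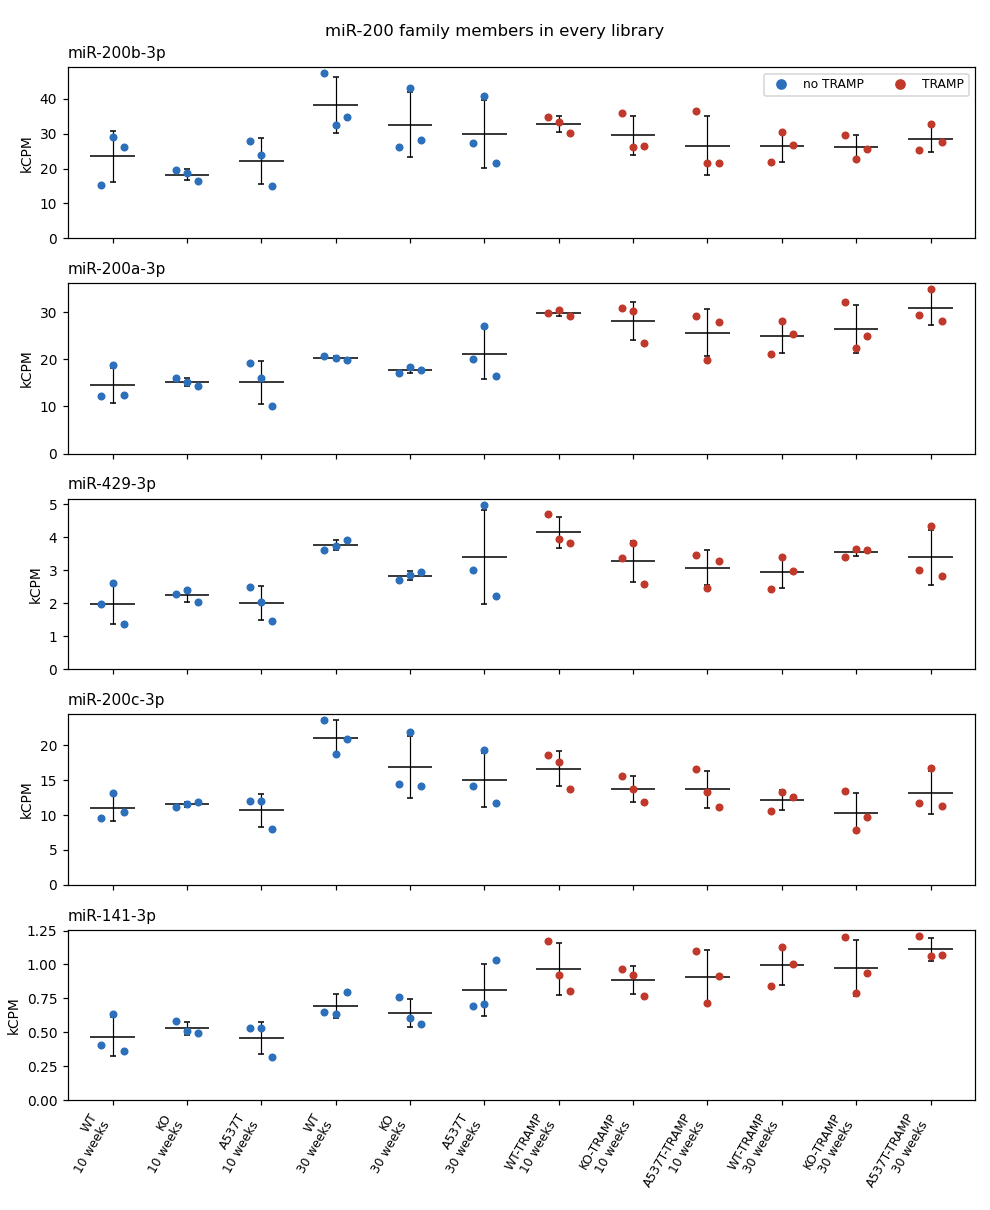
Level of each miR-200 family member in every library by group, in kCPM (CPM divided by 1000), with a panel for each member; points are single libraries and bars are means with SD (n = 3). For miR-200a-3p and miR-141-3p the 10-week TRAMP libraries all sit above the 10-week libraries without TRAMP, while miR-200c-3p has its highest mean in WT at 30 weeks, where it ran from 18761 to 23682 CPM.

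The first question was whether loss or mutation of Elac2 changed the family. No member passed the test in any of the 8 comparisons of a mutant line with its control, which gave 40 values in all (limma on log2(CPM + 1), Benjamini-Hochberg adjustment over 514 miRNAs). Of the 40 values, 1 had an unadjusted p under 0.05, and edgeR and DESeq2 called 0. As a background, at 10 weeks 3.89% of all miRNAs were called in KO, 0.195% in A537T and 0% in both mutant lines with TRAMP. The 30-week shares of all miRNAs were 0.584% in KO, 6.23% in KO-TRAMP, and 0% in A537T with and without TRAMP.

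The log2 differences ran from -0.51 to 0.31 with standard errors of 0.21 to 0.26, and 25 of the 40 were below 0. The lowest was miR-200c-3p in A537T at 30 weeks. It was read at 11734, 14162 and 19282 CPM in A537T and at 18761, 20923 and 23682 CPM in WT. In A537T 2 libraries lay below all 3 of WT and the highest overlapped (log2 difference -0.51, 95% interval -0.97 to -0.05, unadjusted p = 0.0297 from limma, adjusted p = 0.525). The highest was miR-200a-3p in A537T-TRAMP at 30 weeks, at 28021, 29445 and 34898 CPM against 21202, 25350 and 28085 CPM in WT-TRAMP. The groups overlapped at their edge (log2 difference 0.31, adjusted p = 0.691). In 3 of the 40 comparisons of a member the libraries did not overlap, each time with the mutant lower. In KO at 30 weeks miR-429-3p was read at 2702, 2864 and 2955 CPM against 3620.2, 3733 and 3917 CPM in WT (-0.40, adjusted p = 0.429). There miR-200a-3p was read at 17095, 17800.3 and 18436 CPM against 19868, 20355 and 20635 CPM (-0.19, adjusted p = 0.722), in a comparison where 13.6% of all miRNAs were lower without overlap. In A537T-TRAMP at 10 weeks miR-429-3p was read at 2476, 3297 and 3472 CPM against 3819.8, 3953 and 4697 CPM in WT-TRAMP (-0.44, adjusted p = 0.668), where 13.2% of all miRNAs were. Over all 40 values the 95% intervals from limma reached from -0.97 to 0.78. A member that was not called was therefore not shown to be unchanged. Whether a mutant effect differed between TRAMP and no TRAMP or between ages was tested in 8 further contrasts. Of the 40 values for members 0 were called by limma, edgeR or DESeq2, and 0 had an unadjusted p under 0.05. Of all miRNAs, 7.98% were called for the KO effect by TRAMP at 30 weeks, 0.389% for that at 10 weeks, 0.195% each for the KO effect and the A537T-TRAMP effect by age, and 0% in the other 4 contrasts.

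**Figure D2:**
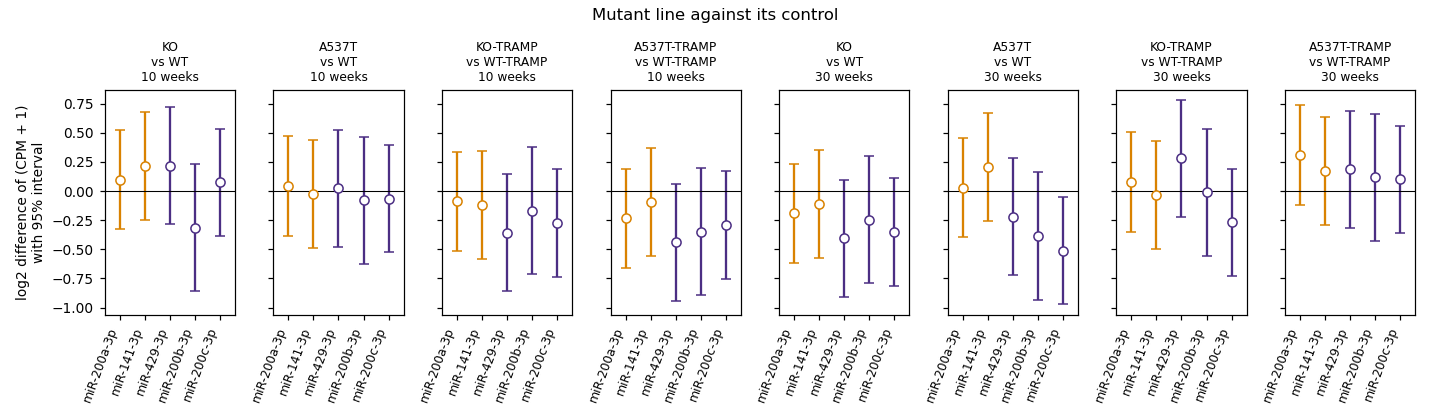
Log2 difference in CPM between each Elac2 mutant line and its control for the 5 members in the 8 comparisons, with 95% intervals from limma; open symbols did not pass the test. All 40 symbols are open, and they run from -0.51 to 0.31.

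The TRAMP comparison asks how the family stands in glands that express the SV40 T antigens. It was averaged over the 3 Elac2 lines, with 9 libraries on each side at each age. At 10 weeks all 5 members were higher with TRAMP, whereas 65.4% of all miRNAs were called, 25.5% as higher and 39.9% as lower, and the median miRNA was at -0.28 on the log2 scale against 0.76 for the median member. The lowest, median and highest miR-200a-3p levels were 19906, 29136 and 30786 CPM with TRAMP and 10165, 15116 and 19204 CPM without. The groups did not overlap (log2 difference 0.91 ± 0.12 SE, adjusted p = 3.06e-07). Its seed partner miR-141-3p was read at 715, 919.6 and 1176 CPM with TRAMP and at 321, 513 and 633 CPM without, again with no overlap (0.93 ± 0.13, adjusted p = 8.30e-07). Groups of 9 that did not overlap, were found for 9.14% of all miRNAs with TRAMP higher and for 5.06% with TRAMP lower.

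The other 3 members, which carry the other seed, also rose at 10 weeks, and their groups overlapped. Whether the size of the rise differed between members was not tested. For miR-429-3p the levels were 2476, 3472 and 4697 CPM with TRAMP and 1367, 2036 and 2627 CPM without, and 7 of 9 TRAMP libraries lay above all others (0.76 ± 0.14, adjusted p = 4.34e-05). For miR-200b-3p they were 21585, 30309 and 36481 CPM against 14902, 19671 and 29192 CPM, with 5 of 9 above (0.49 ± 0.15, adjusted p = 0.00647). For miR-200c-3p they were 11219, 13825 and 18590.3 CPM against 8005, 11624 and 13201 CPM, with 7 of 9 above (0.40 ± 0.13, adjusted p = 0.00854). The skeletal muscle list fell over the same contrast, with 6 of its 6 tested miRNAs lower and a median of -3.64, and so did 9 of 9 stromal miRNAs, with a median of -0.72. When the muscle miRNAs were left out of the library total, miR-429-3p, miR-200a-3p and miR-141-3p stayed called, whereas miR-200b-3p (0.34, adjusted p = 0.0732) and miR-200c-3p (0.24, adjusted p = 0.109) did not. With the stromal list left out as well, an alternative chosen after seeing the data, the first 3 stayed called at 0.30, 0.46 and 0.47, miR-200b-3p was at 0.03 and miR-200c-3p changed sign to -0.06.

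At 30 weeks the members did not move in one direction. Of all miRNAs 45.1% were called, 28.8% as higher and 16.3% as lower, and among the members 2 rose, 1 fell and 2 did not pass the test. Of the calls over all miRNAs 63.8% were higher, or 50.2% when median-of-ratios scaling was used. Levels of miR-200a-3p were 21202, 28021 and 34898 CPM with TRAMP and 16369, 19868 and 26966 CPM without, and 5 of 9 TRAMP libraries lay above all others (0.47 ± 0.12, adjusted p = 0.00217). Levels of miR-141-3p were 792, 1060.5 and 1211 CPM against 564, 696 and 1032 CPM, also with 5 of 9 above (0.53 ± 0.13, adjusted p = 0.00149). In contrast, miR-200c-3p fell, at 7892, 11679 and 16782 CPM with TRAMP against 11734, 18761 and 23682 CPM without. Here 5 of 9 TRAMP libraries lay below all others (-0.56 ± 0.13, adjusted p = 0.000824). None of the 5 members had groups that did not overlap at this age, as 8.37% of all miRNAs did with TRAMP higher and 3.5% with TRAMP lower.

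The remaining pair with the seed of miR-200c overlapped widely at 30 weeks. Levels of miR-200b-3p were 21747, 26765 and 32703 CPM with TRAMP and 21718, 32656 and 47433 CPM without (-0.29 ± 0.15, adjusted p = 0.132). Levels of miR-429-3p were 2449, 3407 and 4348 CPM against 2221, 3008 and 4995 CPM (0.00 ± 0.14, adjusted p = 0.984), and its sign changed with the scaling. Skeletal muscle miRNAs were under 1% of reads in each 30-week library, and leaving them out of the total changed no call among the 5 members. Under median-of-ratios scaling the value for miR-200a-3p was 0.34 with an adjusted p of 0.0586, and with DESeq2 it was 0.33 with an adjusted p of 0.0524. For miR-200b-3p, DESeq2 (-0.47, adjusted p = 0.0444), edgeR (-0.43, adjusted p = 0.0465), sample weights (-0.21) and the total without muscle and stromal miRNAs (-0.38) called it lower.

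**Figure D3:**
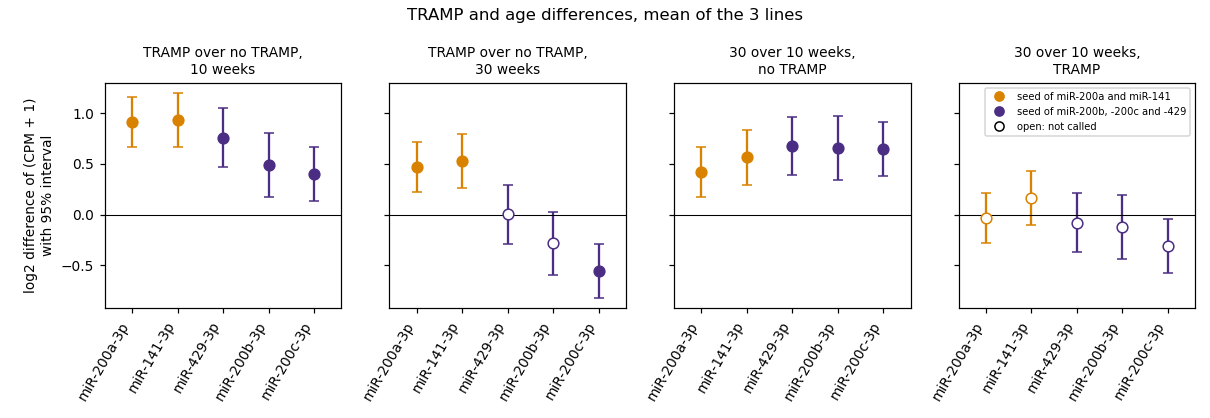
Log2 difference in CPM for the 5 members in the TRAMP comparison at 10 and at 30 weeks and in the comparison of 30 with 10 weeks without and with TRAMP, averaged over the 3 Elac2 lines, with 95% intervals from limma; filled symbols passed the test and colour marks the seed. At 30 weeks miR-200a-3p (0.47) and miR-141-3p (0.53) lie above 0 while miR-200c-3p (-0.56) lies below it.

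The arm that is less abundant gave a second reading of the same hairpins. Of the 5p arms, miR-200a-5p averaged 803 CPM, miR-200b-5p 218 CPM, miR-141-5p 61.4 CPM and miR-200c-5p 5.68 CPM. For miR-429-5p there were 2 reads in library 8 and 0 in the other 35, where 3 counts would be 0.137 to 4.58 CPM, so it was not tested. At 10 weeks miR-200a-5p rose with TRAMP, from 384, 510.3 and 681 CPM without to 989, 1032 and 1368 CPM with it as lowest, median and highest. Its groups did not overlap (1.09 ± 0.14, adjusted p = 2.46e-07). Levels of miR-200b-5p, from the same cluster, were 126, 204 and 305 CPM without TRAMP and 151, 205 and 278 CPM with it. These groups overlapped almost wholly (0.08 ± 0.17, adjusted p = 0.684). With muscle and stromal miRNAs left out of the total, limma called miR-200b-5p lower with TRAMP (-0.38, adjusted p = 0.0158). At 30 weeks miR-200b-5p fell, from 179.6, 298 and 432 CPM without TRAMP to 119, 171 and 234 CPM with it, with 6 of 9 TRAMP libraries below all others (-0.80 ± 0.17, adjusted p = 0.000395). The 30-week value for miR-200a-5p was 0.40 ± 0.14 (adjusted p = 0.022), and that call was lost without library 11 or 14 and under median-of-ratios scaling (0.27, adjusted p = 0.21), TMM (adjusted p = 0.118), edgeR (adjusted p = 0.148) and DESeq2 (adjusted p = 0.272). The arm miR-141-5p rose at 10 weeks (0.52 ± 0.16, adjusted p = 0.00652, or 0.07 with muscle and stromal miRNAs left out of the total) and miR-200c-5p did not pass the test there (0.41 ± 0.20, adjusted p = 0.0728). It was called higher under median-of-ratios scaling (0.59), TMM (0.53), edgeR (0.53) and DESeq2 (0.69).

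The make-up of the family is free of library scaling, since it compares members within a library. These ratios are given as a description, with no test, and the difference between members was not tested. The members with the seed AACACUG, miR-200a-3p and miR-141-3p, made up 34.8% to 44.3% of the family's reads in the 18 TRAMP libraries (mean 38.9% ± 2.80 SD) and 21.8% to 33.5% in the 18 without TRAMP (mean 29.3% ± 3.52 SD). The 2 sets did not overlap. Within each age they were also apart: 34.8% to 44.3% against 25.3% to 33.5% at 10 weeks, and 38.2% to 43.4% against 21.8% to 32.8% at 30 weeks. The mean share in WT was 29.1% at 10 weeks and 25.1% at 30 weeks, and in WT-TRAMP 36.5% and 38.4%.

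Ratios between neighbours of one cluster are given next. Reads of miR-200a-3p per read of miR-200b-3p numbered 0.918 to 1.163 with TRAMP and 0.426 to 0.754 without at 30 weeks, without overlap, and at 10 weeks 6 of 9 TRAMP libraries lay above all others. Reads of miR-200a-5p per read of miR-200b-5p numbered 3.70 to 6.55 with TRAMP (mean 5.42 ± 0.84 SD, 18 libraries) and 1.69 to 3.06 without (mean 2.51 ± 0.35 SD, 18 libraries), and the sets were apart at each age. On chromosome 6, reads of miR-141-3p per read of miR-200c-3p numbered 0.0525 to 0.0818 with TRAMP and 0.0352 to 0.0522 without at 10 weeks. These ranges did not overlap, but the gap between them lies within counting error. At 30 weeks the ratio was 0.063 to 0.104 against 0.027 to 0.088, and 5 of 9 TRAMP libraries lay above all others. Between members of one seed, reads of miR-141-3p per read of miR-200a-3p ran from 0.026 to 0.063 and overlapped at each age. Reads of miR-200c-3p per read of miR-200b-3p overlapped at 10 weeks, and at 30 weeks numbered 0.345 to 0.513 with TRAMP and 0.473 to 0.600 without, with 7 of 9 TRAMP libraries below all others. For miR-429-3p per read of miR-200b-3p, 3 of 9 TRAMP libraries lay above all others at each age.

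Ratios that separate TRAMP from no TRAMP were common. Among 13041 pairs of the 162 miRNAs with a mean of at least 100 CPM, 19.9% had ratios that did not overlap at 10 weeks, 19.7% at 30 weeks and 7.15% over all 36 libraries. The share of family reads from the chromosome 4 cluster was 79.8% to 84.9% with TRAMP and 73.0% to 78.4% without at 30 weeks, whereas at 10 weeks 75.9% to 81.3% and 72.6% to 79.7% overlapped. The relation of 3p to 5p reads of one hairpin moved too: for miR-200b there were 140 to 197 3p reads per 5p read with TRAMP and 94.4 to 124 without at 30 weeks, again without overlap, and at 10 weeks 7 of 9 TRAMP libraries lay above all others. For miR-200c the direction was the opposite at 30 weeks, at 1683 to 2614 3p reads per 5p read with TRAMP and 2649 to 5724 without. These ranges nearly met. The libraries at the facing edges, 15 and 20, held only 54 and 103 reads of miR-200c-5p, so the gap lies within counting error. That arm averaged under 100 CPM and was not among the pairs counted above. For miR-200a and miR-141 the sets overlapped at each age, and for miR-200c they overlapped at 10 weeks.

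**Figure D4:**
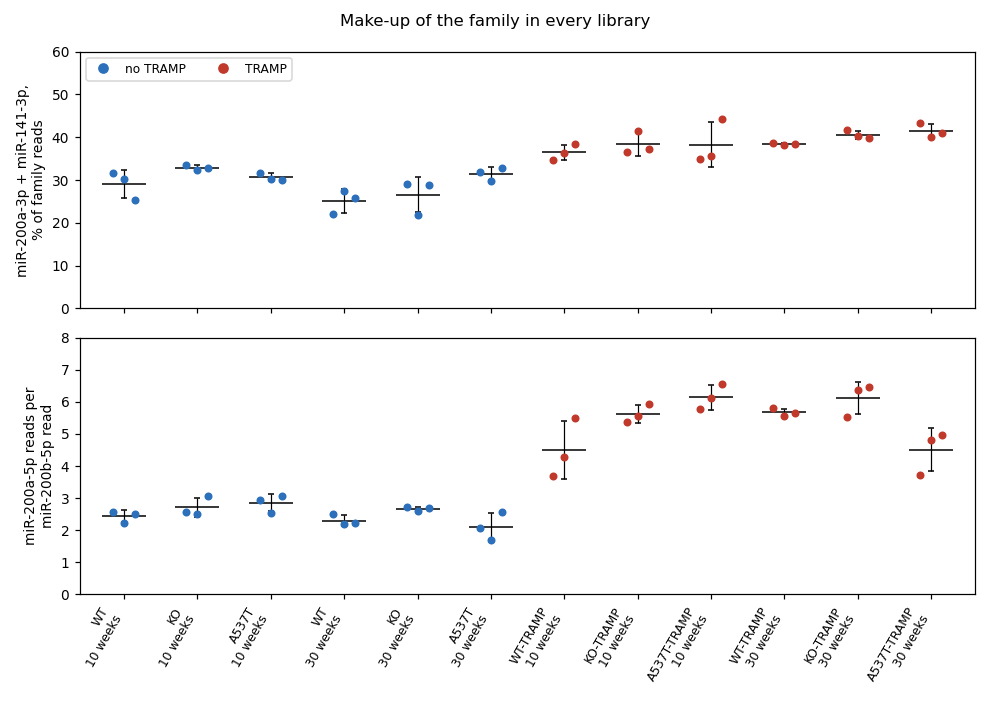
Make-up of the miR-200 family by group, with a point for each library: the percent of family reads from miR-200a-3p and miR-141-3p (top) and the reads of miR-200a-5p per read of miR-200b-5p (bottom). The 18 TRAMP libraries lie at 34.8% to 44.3% and at 3.70 to 6.55, above the 18 libraries without TRAMP at 21.8% to 33.5% and at 1.69 to 3.06.

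Age was compared within each background, again averaged over the 3 lines. Without TRAMP all 5 members were higher at 30 than at 10 weeks, where 33.5% of all miRNAs were called, 12.8% as higher and 20.6% as lower. The log2 differences were 0.68 ± 0.14 for miR-429-3p (adjusted p = 0.000419), 0.66 ± 0.15 for miR-200b-3p (adjusted p = 0.00122), 0.65 ± 0.13 for miR-200c-3p (adjusted p = 0.000281), 0.57 ± 0.13 for miR-141-3p (adjusted p = 0.0011) and 0.42 ± 0.12 for miR-200a-3p (adjusted p = 0.00766). In WT, for example, miR-200c-3p was read at 9629, 10438 and 13201 CPM at 10 weeks and at 18761, 20923 and 23682 CPM at 30 weeks, without overlap, as was so for 16.9% of all miRNAs. The skeletal muscle list fell over the same contrast, with 6 of 6 tested miRNAs lower and a median of -3.53. With those miRNAs left out of the total the call for miR-200a-3p was lost (0.26), and with the stromal list left out as well those for miR-200a-3p (0.12) and miR-141-3p (0.27) were lost while miR-429-3p (0.38), miR-200b-3p (0.36) and miR-200c-3p (0.35) stayed called.

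In TRAMP mice none of the 5 members passed the test between 30 and 10 weeks, where limma called 27.4% of all miRNAs, 20.2% as higher and 7.2% as lower. Of the 5 values 1 had an unadjusted p under 0.05, that of miR-200c-3p at -0.31 ± 0.13 (adjusted p = 0.0707), which was called by edgeR and DESeq2 and without library 6, 14 or 16. The other members were at 0.16 for miR-141-3p, -0.03 for miR-200a-3p, -0.08 for miR-429-3p and -0.12 for miR-200b-3p. The test of the difference itself, the TRAMP difference at 30 weeks less that at 10 weeks, called 4 of 5 members, all as lower, where 37.2% of all miRNAs were called, 28.2% as higher and 8.95% as lower. It was largest for miR-200c-3p (-0.96 ± 0.18, adjusted p = 0.000263), then miR-200b-3p (-0.78 ± 0.22, adjusted p = 0.00718) and miR-429-3p (-0.76 ± 0.20, adjusted p = 0.00493). For miR-200a-3p it was -0.45 ± 0.17 (adjusted p = 0.0398) and for miR-141-3p it was -0.40 ± 0.18 (adjusted p = 0.0832). The value for miR-141-3p was called under median-of-ratios scaling (-0.73), TMM (-0.62), edgeR (-0.56) and DESeq2 (-0.71), which then called all 5 members. With skeletal muscle and stromal miRNAs left out of the total, miR-200c-3p (-0.60) and miR-200b-3p (-0.41) stayed called, whereas miR-429-3p (-0.39) and miR-200a-3p (-0.08) did not.

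Within single Elac2 lines the TRAMP comparison called 14 of 30 values, and 9 of the 14 were lost without some one library. At 10 weeks it called 4 members as higher in WT, where 34% of all miRNAs were called and 19.8% as higher, 3 in KO (42.8% and 14.4%), and 3 in A537T (35% and 12.6%). In WT, KO and A537T the value of miR-200a-3p was 1.07, 0.88 and 0.79 and that of miR-141-3p 1.07, 0.73 and 1.00, each of the 6 past the test. At 30 weeks miR-200c-3p fell in WT (-0.79, adjusted p = 0.00966), where 30.2% of all miRNAs were called, 15.4% as higher and 14.8% as lower, and in KO (-0.71, adjusted p = 0.0138), where the shares were 35.8%, 27.2% and 8.56%. Those 2 calls were lost without library 10 in WT (adjusted p = 0.0522) and without library 17 (adjusted p = 0.111) or 23 (adjusted p = 0.102) in KO. In KO miR-200a-3p (0.56) and miR-141-3p (0.59) also rose. In A537T at 30 weeks 0 members passed the test with limma, 2 had an unadjusted p under 0.05, and 10.9% of all miRNAs were called, 8.56% as higher and 2.33% as lower, with miR-200c-3p at -0.18 (adjusted p = 0.705).

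Within single lines without TRAMP the age comparison called 5 values, all higher at 30 weeks. In WT they were miR-429-3p (0.97) and miR-200c-3p (0.94), where 9.53% of all miRNAs were called and 4.47% as higher, in KO miR-200b-3p (0.80), where the shares were 14.8% and 1.95%, and in A537T miR-141-3p (0.83) and miR-429-3p (0.72), where they were 15.2% and 4.86%. Of these 5 calls 4 were lost without some one library. In the 3 TRAMP lines 0 of 15 values passed the test with limma and 1 had an unadjusted p under 0.05, where 7.59%, 22.2% and 5.45% of all miRNAs were called in WT-TRAMP, KO-TRAMP and A537T-TRAMP.

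Across the 36 libraries the members correlated to different degrees. The values are Spearman correlations of CPM, given as a description, and the points share groups and the total they were scaled to. The highest of the 10 pairs were miR-200a-3p with miR-141-3p and miR-200b-3p with miR-200c-3p, at 0.850 each, pairs of one seed whose genes lie on different chromosomes. Of the cluster neighbours, miR-200a-3p and miR-200b-3p had 0.537 and miR-200c-3p and miR-141-3p had 0.209. The pairs of miR-429-3p did not follow the seed: it had 0.779 with miR-200a-3p of the other seed, and 0.700 with miR-200b-3p and 0.636 with miR-200c-3p of its own. The 3p and 5p arms of one hairpin had 0.835 for miR-200a, 0.809 for miR-200b, 0.564 for miR-141 and 0.361 for miR-200c.

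**Figure D5:**
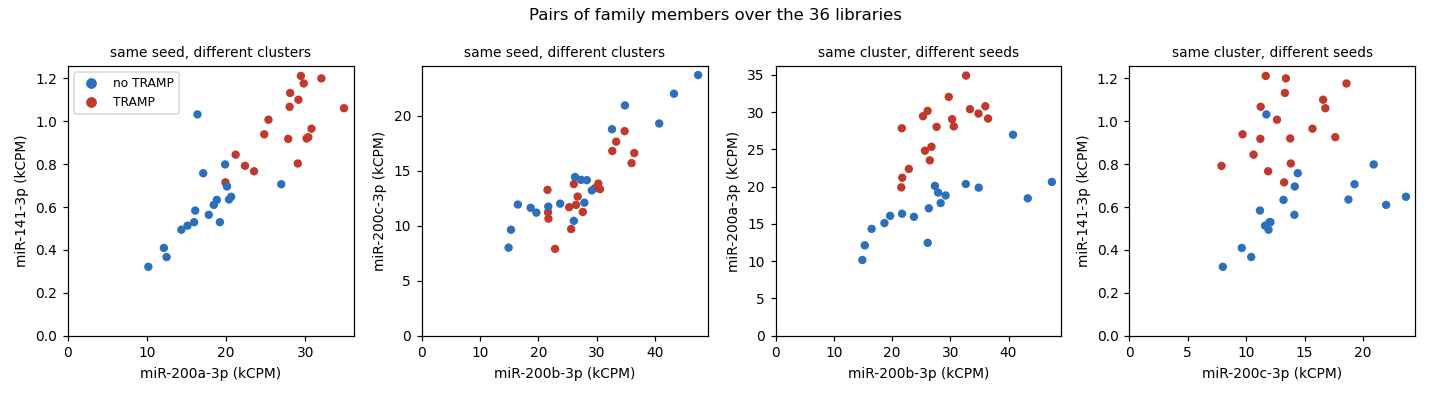
Levels of pairs of members in kCPM (CPM divided by 1000) in the 36 libraries, coloured by TRAMP, for 2 pairs of one seed and 2 pairs of one cluster. The 2 plotted pairs of one seed lie along one band (Spearman 0.850 each), whereas miR-200a-3p against miR-200b-3p had 0.537. The ratio of that last pair set TRAMP apart from no TRAMP at 30 weeks only. At 10 weeks it overlapped, at 0.799 to 1.284 with TRAMP and 0.478 to 0.869 without.

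Other miRNAs, 155 in all, were ranked by Spearman correlation with the mean log2(CPM + 1) of the 5 members. Most like the family were let-7c-5p (0.864), miR-21a-5p (0.860), miR-204-5p (0.831), miR-361-5p (0.825) and the epithelial miR-183-5p (0.803). Those that ran most against it were miR-100-5p (-0.856), the merged miR-486a and miR-486b 5p row (-0.853), known from red cells, and the endothelial miR-126a-3p (-0.791). The family's share of reads also ran against the summed share of the marker lists of stroma (-0.733), skeletal muscle (-0.670), endothelium (-0.768) and red cells (-0.800), part of which follows from all shares adding up to one total. With the lists of white blood cells, other epithelial miRNAs and neuroendocrine cells the values were 0.443, 0.259 and -0.197. The share of the family with the seed AACACUG had -0.216 with the stromal list. The part of any of these tissues in the results was not tested.

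The other epithelial miRNAs did not all move with the family. At 10 weeks 5 of 7 were higher with TRAMP and 1 was lower, with a list median of 0.49. Of all miRNAs 25.5% were called higher in that comparison and 39.9% lower. The epithelial and the neuroendocrine list both hold miR-375-3p. Among them miR-183-5p (0.79), miR-96-5p (0.49) and miR-182-5p (0.29), which are made from one cluster, rose, as did miR-203-3p (0.64), a miRNA of differentiating epithelium, whereas miR-205-5p, a miRNA of basal cells, fell (-0.72). In the lists of other cells over the same contrast, 2 of 2 endothelial and 3 of 4 red cell miRNAs fell, white blood cell miRNAs were divided into 3 higher and 3 lower of 6, and 1 of 4 neuroendocrine miRNAs rose. At 30 weeks 3 of 7 epithelial miRNAs were higher with TRAMP and 1 lower, with miR-203-3p at 1.20 and miR-205-5p at -1.54. Of all miRNAs 28.8% were called higher there and 16.3% lower. With age and without TRAMP 3 of 7 rose and 0 fell, where 12.8% of all miRNAs were called higher and 20.6% lower. The 3 were miR-183-5p (0.73), miR-182-5p (0.43) and miR-96-5p (0.35). In TRAMP, white blood cell miRNAs rose with age, 6 of 6 with a median of 1.11, as did 4 of 9 stromal miRNAs. There 20.2% of all miRNAs were called higher, and none of the 5 family members passed the test.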

How the data were processed

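Small RNA libraries (TruSeq small RNA kit, NovaSeq) were made by the authors, who joined read pairs with BBMerge, quantified miRBase miRNAs on GRCm38 with mirDeep2, weighting reads that map to several miRNAs, and merged identical mature sequences. The deposited values are signal: counts divided by DESeq2 size factors, in 8 tables of 6 libraries. Whole reads were recovered for 100% of values (tolerance 0.001 of a read). The tables' fold-change and s-value columns, the authors' own comparisons, were not used. Libraries were grouped by the tables they occur in: a library in both the KO and the Mut table of an age and background was its control, and Mut was read as A537T.

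Each library was divided by its sum and multiplied to CPM. limma 3.58.1 (R 4.3.3), with a mean-variance trend, was run on log2(CPM + 1) over 12 group means, 36 libraries and 514 miRNAs with a mean of at least 1 CPM. Tests were two-sided, p-values were adjusted by Benjamini-Hochberg per contrast, and 0.05 was the limit for a call. Differences are on that log2 scale, on which changes of scarce miRNAs come out too small. edgeR 4.0.16 and DESeq2 1.42.0 on the recovered reads, other scalings, filters, pseudocounts, sample weights and leaving out each library were alternatives. Fits were tested on simulated data. The named miRNAs were the 5 members, their 5p arms, the marker lists and the 5 miRNAs most and 3 least like the family. The members and lists were chosen with earlier results of these data known. Library totals were 655455 to 21870210 reads, so counting error of the 5 members was small beside the spread between libraries.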

Additional observations from a re-analysis of the deposited data

Results flagged for a closer look

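For 4 of the 5 members the TRAMP difference was not the same at 30 as at 10 weeks, by the test of the difference itself in limma (log2 scale, 30 weeks less 10 weeks, 36 libraries). The values were -0.96 for miR-200c-3p (adjusted p = 0.000263), -0.78 for miR-200b-3p (adjusted p = 0.00718), -0.76 for miR-429-3p (adjusted p = 0.00493) and -0.45 for miR-200a-3p (adjusted p = 0.0398). The skeletal muscle miRNAs, at up to 30.7% of reads in the 10-week libraries without TRAMP, moved over the same contrast, and their part was not tested beyond leaving them out of the total. With that total miR-200a-3p was no longer called, and with the stromal list left out as well miR-429-3p was no longer called either (-0.39). The call for miR-200a-3p was also lost without any 1 of 21 libraries (1, 2, 4, 6, 7, 8, 10, 12, 13, 15, 17, 18, 19, 23, 24, 26, 28, 30, 32, 33 and 36), with values from -0.51 to -0.36 over all leave-one-out fits.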

How the results depend on the processing

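No paired analysis was possible because the deposited columns carry no replicate number. Counts of members called moved as follows. Mutant against control went from 0 to 8 with sample weights, whose estimate stopped before convergence with weights of 0.0979 to 28.2, and its difference by TRAMP or age from 0 to 4. TRAMP at 10 weeks went from 5 to 3 without skeletal muscle miRNAs in the total, and to 3 without the stromal ones too (chosen after seeing the data). Age without TRAMP went from 5 to 3 under the latter. Age in TRAMP went from 0 to 1 under median-of-ratios, TMM, weights, edgeR, DESeq2 and the total without both lists, and was 0 to 1 without single libraries. TRAMP at 30 weeks went from 3 to 2 under median-of-ratios and to 4 with weights, edgeR and the total without both lists. TRAMP by age went from 4 to 2 under that total, to 3 with no filter, no trend and without muscle, and to 5 under median-of-ratios, TMM, edgeR and DESeq2, and was 3 to 5 without single libraries. TRAMP within lines went from 14 to 9 with no filter and with the contrast's groups alone, and was 11 to 16 without single libraries. Age within lines went from 5 to 3 with no filter, 9 under median-of-ratios and DESeq2, 1 without muscle, 14 with weights, 2 with the contrast's groups alone and 2 without both lists, and was 3 to 8 without single libraries (3 without 24, 31, 33 or 36, 8 without 29). Values that changed sign were these. Without both lists, TRAMP at 10 weeks gave miR-200c-3p -0.0607 and miR-200b-5p -0.378, age gave miR-200c-5p -0.168 and miR-141-5p -0.00876 without TRAMP and miR-200a-3p 0.0336 in TRAMP, and TRAMP by age gave miR-200c-5p 0.0599. For miR-200b-5p, TRAMP at 10 weeks gave -0.0744 without muscle, -0.0825 with weights and -0.0131 to 0.157 without single libraries, below 0 without library 36. For miR-429-3p, TRAMP at 30 weeks gave -0.126 under median-of-ratios, -0.0896 under TMM, -0.0135 with weights, -0.125 with edgeR, -0.15 with DESeq2, -0.0933 without both lists and -0.0858 to 0.109 without single libraries. For miR-141-5p it gave -0.0141 under median-of-ratios and -0.0140 with DESeq2. For miR-200c-5p, age without TRAMP gave -0.0427 without muscle, -0.0506 with weights and -0.063 to 0.18 without single libraries. For miR-200a-3p, age in TRAMP gave -0.0866 to 0.00781 without single libraries. The causes were not tested. Of 44 called single values 1 ever reversed and 26 were ever lost. Median-of-ratios moved the median of all miRNAs by 0.15, -0.11, 0.15, -0.12 and -0.28 for TRAMP at 10 and 30 weeks, age without and with TRAMP, and TRAMP by age, and took the share of calls that were higher from 38.4% to 57.5% for age without TRAMP, from 73.8% to 54.1% for age in TRAMP and from 75.9% to 47.9% for TRAMP by age. Pseudocounts of 0.1 and 10 and a minimum of 10 CPM gave the same counts of members called.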
